A study of Homo sapiens with 8 samples.

Results

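The late-closing regions of TGFβ1-treated MCF10A cells were open chromatin sites whose ATAC-seq peak, found in solvent and after 6 and 24 h of TGFβ1, was absent after 72 h. They were chosen by the deposited peak lists themselves: the 4 lists were merged wherever peaks shared 1 base or more, and 1513 of the 126658 merged regions had this pattern. Presence and absence of a peak are therefore what selected the members and are described here without a test. Of the 80788 regions with a peak in all of the first 3 lists, 79275 still had one at 72 h and are called kept regions, so that 1.87% closed late.

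The cells were wild-type MCF10A, an immortalised line of human mammary epithelium that leaves its epithelial state under TGFβ1, grown in all groups with EGF, hydrocortisone, cholera toxin, insulin and horse serum. They received solvent or 5 ng/ml TGFβ1 for 6, 24 or 72 h, with 2 replicates per condition and 8 libraries in all, and the peaks of both replicates were called together, so that each condition has 1 list and no spread between replicates. The solvent libraries are labelled as time 0, whereas a legend of the study describes solvent for 72 h with all cells harvested on the same day. Promoters of all 7 basal mammary epithelial marker genes examined had a peak within 3 kb in every list, while CD3E, which marks T lymphocytes, had none in any list. Peaks were also found at 2 or 3 of 3 endothelial genes and at 3 of 3 fibroblast genes.

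ATAC-seq reads out where a transposase can reach the DNA, and many of the sites it finds away from promoters are enhancers held open by transcription factors. AP-1, a dimer of JUN and FOS proteins, keeps many epithelial enhancers open and is itself induced by growth factors and TGFβ. The E-box CACCTG is bound by the SNAIL and ZEB repressors of epithelial genes and by basic helix-loop-helix factors, and C/EBP and KLF factors act at enhancers of differentiating epithelia.

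The DNA of a few members is shown first, because the late-closing regions differed from kept regions in the motifs they held. Each sequence spans 151 bases around the summit of the strongest solvent peak, on the + strand of GRCh38, with matches to the motifs searched in capitals. The first 3 are among the 6 distal members with the largest peak signal at 24 h, and none of them held an AP-1, CACCTG or C/EBP motif. The fourth lay 558 bases from the start of RTP1, which helps odorant receptors reach the cell surface, and held a CACCTG E-box on the other strand and a C/EBP motif. The next pairs are distal members of large 24 h signal with a CACCTG E-box (nearest protein-coding genes NEURL1B and TMEM154) and with a C/EBP motif (MYCN and FRMD6), and the last is a rarer member with AP-1 (GPAT2). The last 5 were chosen after the motif counts were seen, each from the strongest distal members that held the motif.
ENSG00000188897, chr16:11534473-11534623: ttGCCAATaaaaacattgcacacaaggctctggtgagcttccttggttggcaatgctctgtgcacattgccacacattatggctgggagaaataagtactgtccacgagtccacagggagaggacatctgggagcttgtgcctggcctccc
C1QTNF12, chr1:1237914-1238064: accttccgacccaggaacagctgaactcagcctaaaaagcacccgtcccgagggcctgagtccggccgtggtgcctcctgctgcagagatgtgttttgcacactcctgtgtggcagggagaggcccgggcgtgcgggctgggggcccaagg
JDP2, chr14:75417937-75418087: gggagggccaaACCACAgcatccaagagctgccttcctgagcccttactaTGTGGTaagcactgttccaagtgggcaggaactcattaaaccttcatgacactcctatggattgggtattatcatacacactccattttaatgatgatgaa
RTP1, chr3:187196733-187196883: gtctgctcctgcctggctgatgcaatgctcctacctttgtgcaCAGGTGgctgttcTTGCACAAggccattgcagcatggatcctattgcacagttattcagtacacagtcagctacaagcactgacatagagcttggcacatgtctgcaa
NEURL1B, chr5:172622453-172622603: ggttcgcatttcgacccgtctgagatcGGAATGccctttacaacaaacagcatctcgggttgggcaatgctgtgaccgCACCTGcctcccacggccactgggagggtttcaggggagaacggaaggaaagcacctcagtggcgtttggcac
TMEM154, chr4:152634465-152634615: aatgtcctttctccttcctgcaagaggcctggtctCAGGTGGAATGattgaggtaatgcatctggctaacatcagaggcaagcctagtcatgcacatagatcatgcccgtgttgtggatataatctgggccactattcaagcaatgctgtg
MYCN, chr2:16247903-16248053: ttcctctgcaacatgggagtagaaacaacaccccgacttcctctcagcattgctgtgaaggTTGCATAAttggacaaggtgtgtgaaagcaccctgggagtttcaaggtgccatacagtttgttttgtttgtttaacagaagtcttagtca
FRMD6, chr14:51533994-51534144: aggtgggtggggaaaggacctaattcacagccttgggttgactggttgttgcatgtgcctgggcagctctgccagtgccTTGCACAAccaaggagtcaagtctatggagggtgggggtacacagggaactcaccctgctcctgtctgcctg
GPAT2, chr2:96068111-96068261: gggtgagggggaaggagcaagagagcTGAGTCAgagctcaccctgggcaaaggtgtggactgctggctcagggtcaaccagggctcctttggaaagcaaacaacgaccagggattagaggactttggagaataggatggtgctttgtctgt
The window near ENSG00000188897 held a GCCAAT motif of NFY, the one near JDP2 held 2 TGTGGT motifs of RUNX factors, and the E-box windows near NEURL1B and TMEM154 each held a GGAATG motif of TEAD factors as well. In the TMEM154 window the E-box and the TEAD motif overlapped by 1 base, starting 40 and 35 bases before the summit. The C/EBP motif started 14 bases before the summit in the window labelled MYCN and 4 bases after it in the one labelled FRMD6. The regions of these windows lay 303965 and 20472 bases from the starts of those genes. In the window labelled GPAT2, whose region lay 28638 bases from that gene's start, the AP-1 motif started 49 bases before the summit.

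The late-closing regions were mostly weak peaks. Signal is given as the AUC, the area under the significance curve of a peak as Genrich reports it, summed over the peaks of a region, and the authors listed peaks with an AUC above 200. Of the regions with a solvent AUC from 200 to 300, 803 of 10628 closed late (7.56%, 95% Wilson interval 7.07 to 8.07). The share was 3.74% from 300 to 400, 1.96% from 400 to 600, 0.711% from 600 to 1000 and 0.103% from 1000 to 2000. None of the 16315 regions with a solvent AUC of 2000 or more closed late, which allows a share of up to 0.0184% at 3 counts of the total, the limit used for every count of 0 here. Intervals here cover counting error only, and the read depth behind a peak is unknown.

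The AUC at 24 h sorted the regions more steeply still. Of 1775 regions with an AUC from 200 to 300 at 24 h, 687 had no peak at 72 h (38.7%), against 2 of the 23333 regions from 1000 to 2000. The members nearest the threshold had 24 h AUCs of 200.01 near ST3GAL3, 200.453 near PAX8 and 200.474 near RAB27B, and the kept regions nearest it had 72 h AUCs of 200.056 near DACT2, 200.139 near DPH5 and 200.279 near VGLL4. Absence from the 72 h list is therefore not a measured zero, and 2551 kept regions had a 72 h AUC under 300. An AUC of at least 400 in each of the first 3 lists was reached by 141 members, and 47 had at least 600 at 24 h.

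**Figure D1:**
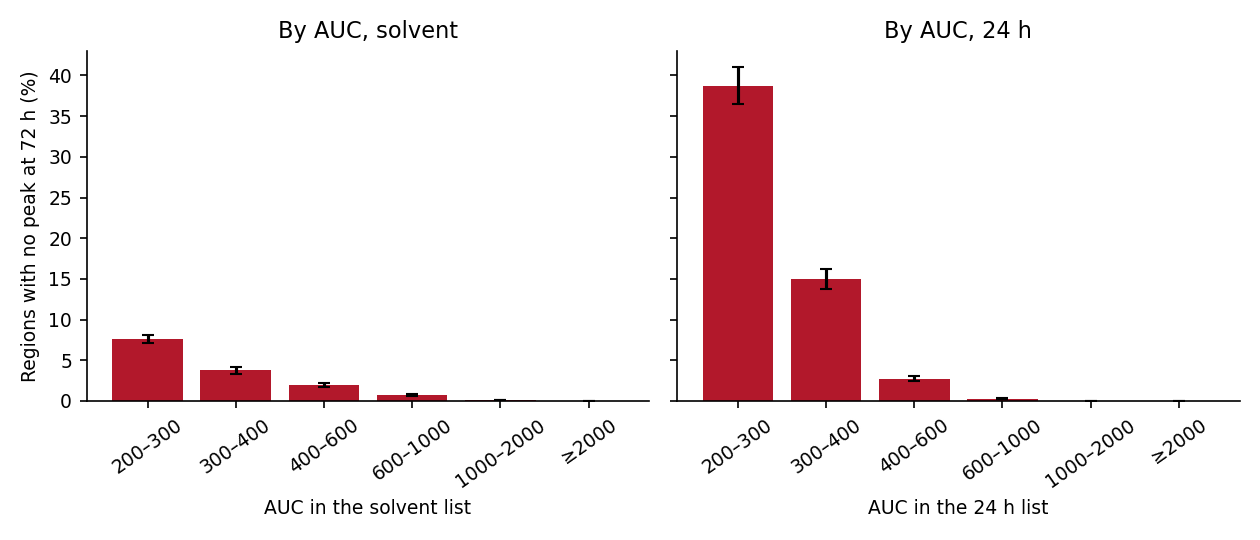
Share of regions open in the first 3 lists that had no peak at 72 h (y axis, percent), by the AUC of the region in the solvent list (left) or in the 24 h list (right). Bars are shares and lines are 95% Wilson intervals; the share was 7.56% in the lowest bin of solvent AUC and 38.7% in the lowest bin of 24 h AUC, and 0 in the highest bin of each.

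Absence from the 72 h list alone was more frequent than absence from another TGFβ1 list alone. Whereas 1513 regions (1.19% of all) lacked a peak at 72 h only, 240 (0.189%) lacked one at 24 h only and 101 (0.0797%) at 6 h only. List lengths were 86209 peaks for solvent, 107656 for 6 h, 118433 for 24 h and 116720 for 72 h, and cutting them to equal length gave 3239 regions absent at 72 h only. Of the 1513 members, 298 (19.7%) lay within 500 bases of a 72 h peak, and 454 (30.01%) within 1 kb.

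The signal of the late-closing regions was higher at 6 h than in solvent and near its solvent level again at 24 h. Their median AUC was 293 in solvent (quartiles 239 and 401), 388 at 6 h (312 and 496) and 311 at 24 h (254 and 385). Kept regions, weighted so that their solvent AUCs were distributed as those of the members, had medians of 294, 546, 605 and, at 72 h, 556. The equal start follows from the weighting, and at 24 h the members were well below the weighted kept regions. The AUC is not scaled between lists, and without weighting the kept regions had medians of 793 in solvent, 1216 at 6 h and 1265 at 24 h. A higher value at 6 h was therefore not particular to the members. These courses come from the lists that chose the members and are a description.

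Region by region, the median log2 ratio of the 6 h to the solvent AUC was 0.32 in members (95% interval of the median from order statistics 0.30 to 0.35) and 0.75 in weighted kept regions. That of 24 h to solvent was 0.03 (-0.01 to 0.06) and 0.88, a gap of -0.85 (-0.89 to -0.82), which was -0.76 for members near a transcription start site and -0.90 for the others. The gap was smaller with kept regions weighted to the 24 h AUC (-0.16), with AUC per base (-0.54) and with the −log10 p at the summit in place of the AUC (-0.26), but members were the lower in each.

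The AUC was lower at 24 h than at 6 h in 1154 members (76.3%, 74.1 to 78.3), against 34.0% of weighted kept regions and 51.7% of all regions with peaks in the first 3 lists. The most frequent course, higher at 6 h and then lower, was taken by 941 members (62.2%) and by 33.4% of weighted kept regions. Values higher in each list than in the one before were seen in 256 members (16.9%, against 64.4%), and values lower in each in 213 (14.1%, against 0.572%). Members and kept regions of like solvent signal thus had different courses in these lists. The same lists chose the members, and 45.4% of members had a 24 h AUC under 300, near the authors' threshold. With kept regions weighted to the 24 h AUC, the gap in the log2 ratio of 24 h to solvent was -0.16 in place of -0.85. Whether the courses differed beyond what this choice of members brings was not tested. In kept regions weighted to the solvent AUC the median log2 ratio of the 72 h to the 24 h AUC was -0.11, with 64.1% lower at 72 h, whereas weighting to the 24 h AUC gave 0.03 and 47.5%.

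**Figure D2:**
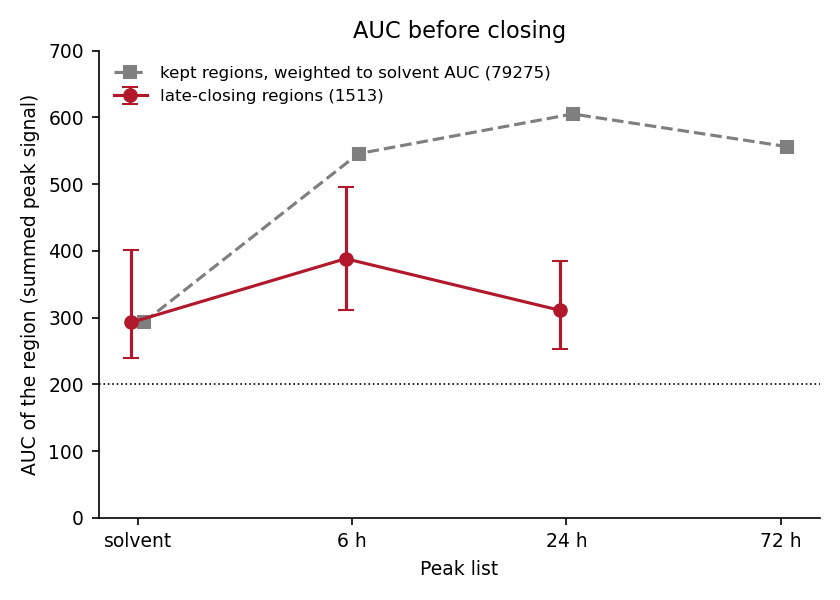
Median AUC (y axis, summed peak signal) of the 1513 late-closing regions in the solvent, 6 h and 24 h lists (circles, with bars from the lower to the upper quartile) and of the 79275 kept regions weighted to the members' solvent AUC (squares). The dotted line is the authors' threshold of 200; members had 293, 388 and 311, and the weighted kept regions 294 in solvent and 605 at 24 h.

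The strongest members at 24 h were led by a distal region at chr16:11534118-11534650, between genes and 6871 bases from the nearest start site, that of the protein-coding gene ENSG00000188897. Its AUC was 1343 in solvent and 1645 at 6 h, with 1204 at 24 h. The nearest 72 h peak lay 834 bases away. A region over the start of ADM2, which encodes the peptide hormone adrenomedullin 2, had 583, 1006 and 1024. These are large signals for late-closing regions, whose 24 h median was 311.

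An intron of SDHB, a subunit of succinate dehydrogenase, held a member with AUCs of 609, 1033 and 932. The member upstream of RTP1 had 813, 986 and 809, and the first of 2 members at VSIG10L2 had 1138, 1210 and 983. The region near C1QTNF12, a secreted C1q/TNF-related protein, went from 368 to 787 and 810, and the one near SIN3B, a scaffold of histone deacetylase complexes, from 572 to 662 and 793. C1QTNF12 and SIN3B thus had their highest value at 24 h, immediately before the peak was absent. The member 9491 bases from JDP2, a bZIP protein that pairs with JUN and represses AP-1 sites, had 918, 1117 and 758, and one 14132 bases from IL1R1, the interleukin-1 receptor, had 848, 1279 and 753. Both were highest at 6 h and below solvent at 24 h.

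Late-closing regions were nearer to transcription start sites than kept regions of like solvent AUC. Proximal regions, those within 3 kb of a start site or overlapping a first exon or 5′ untranslated region in GENCODE 44, made up 581 of the 1513 members (38.4%, 36.0 to 40.9) and 28.7% of weighted kept regions, a gap of 9.72 points (7.30 to 12.2). Without weighting, kept regions were proximal in 40.6% and the gap turned to -2.17 points (-4.59 to 0.309): 21.1% of all kept regions held a start site, against 5.86% after weighting. The gap was 4.67 points without members within 500 bases of a 72 h peak, 4.43 when weighted to the 24 h AUC, and 0.45 (-6.68 to 8.54) among regions with an AUC of at least 400 in the first 3 lists. It was 8.92 points (5.99 to 11.9) when peaks under an AUC of 400 were dropped from every list.

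By distance, 113 members (7.47%) held a start site, 226 (14.9%, against 9.48%) lay under 1 kb away and 239 (15.8%, against 13.0%) from 1 to 3 kb. From 30 to 100 kb there were 11.5% against 16.1%, and at 100 kb or more 27 members (1.78%, against 3.25%). The excess of members was thus largest just beside, rather than over, start sites. The median distance was 5570 bases (4934 to 6237) in members and 8688 in weighted kept regions, and to a protein-coding start site 11070 against 19608 bases.

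**Figure D3:**
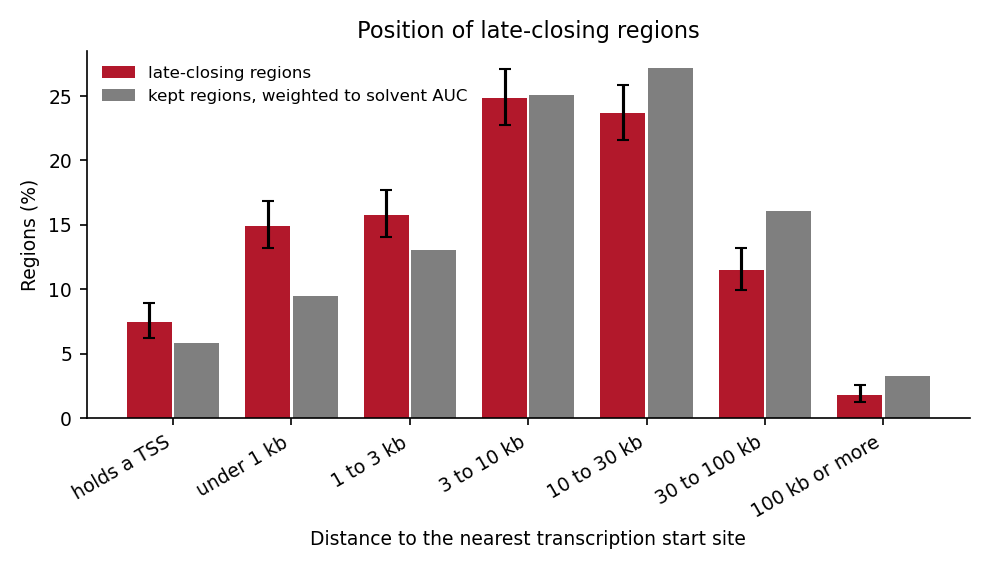
Share of regions (y axis, percent) by distance to the nearest transcription start site, for the 1513 late-closing regions (red, with 95% Wilson intervals) and for kept regions weighted to their solvent AUC (grey). Members were the more frequent at under 1 kb (14.9% against 9.48%) and the less frequent from 30 to 100 kb (11.5% against 16.1%).

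Among proximal members the nearest start site was that of a protein-coding gene in 410 (70.6%, against 63.4% of weighted kept proximal regions) and of a long non-coding RNA in 114 (19.6%, against 22.3%). Summits fell in introns in 60.0% of all members, in exons in 10.8% and between genes in 29.1%, against 58.8%, 8.41% and 32.8%. Members also lay closer to kept regions and to other late-closing regions, but not to regions that had opened under TGFβ1. A kept region was found within 1 kb of 437 members (28.9%) and of 16.9% of weighted kept regions, and another late-closing region within 1 kb of 24 members (1.59%, against 0.366%). Regions that first opened at 72 h were within 1 kb of 4 members (0.264%, against 0.798%). Those open in all TGFβ1 lists and not in solvent were within 1 kb of 31 members (2.05%, against 3.47%).

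Other sets that lost their peak by 72 h were also placed relative to start sites. Regions closed by 24 h, with peaks in solvent and at 6 h only, were proximal in 293 of 876 cases (33.4%, 30.4 to 36.6), and regions open only at 6 and 24 h in 1113 of 3027 (36.8%, 35.1 to 38.5). Neither set was weighted for AUC, and their difference from the 38.4% of late-closing regions was not tested.

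Other 72 h peaks were counted at the same genes. Of 443 members within 3 kb of a protein-coding start site, 408 (92.1%) belonged to genes that had a 72 h peak elsewhere within 3 kb of a start site, as did 69 of the 82 members that held such a start site themselves (84.1%). The other 35 members lay at genes with no 72 h peak within 3 kb of a start site. Kept regions hold a 72 h peak by definition. How many of them had a further 72 h peak at the same gene was not computed, so the 92.1% and 84.1% have no reference here.

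PLIN1, the coat protein of adipocyte lipid droplets, lost a peak 861 bases from its start that had solvent, 6 h and 24 h AUCs of 1178, 1217 and 667. FBN3, a fibrillin of the matrix, had 1079, 812 and 386, and PLA2G4B, a phospholipase A2, had 896, 607 and 517. KRT23, an epithelial type I keratin, had 525, 386 and 288 over its start site. The signals of FBN3, PLA2G4B and KRT23 were lower in each list than in the one before it. COL5A3, a fibrillar collagen chain, had 452, 409 and 410. ESR1, the oestrogen receptor α, had 298, 502 and 393 at one of its start sites, while 3 regions nearest to ESR1 had opened under TGFβ1. SALL2, a zinc-finger factor, had 274, 313 and 397, and WNT6, a secreted WNT ligand, had 355, 526 and 307. These 8 genes were named after their values were seen. RNA was not analysed here, so whether these genes changed in expression is not known from these lists.

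The members were spread over many genes. They were nearest to 1359 protein-coding genes, of which 1221 had 1 member, 122 had 2 and 16 had 3, and 1309 of these genes (96.3%) kept at least 1 region, with a median of 7. At 1013 of them (74.5%) a region without a solvent peak had opened under TGFβ1. Over all 16195 protein-coding genes with a region open in the first 3 lists these shares were 99.7% and 56.2%, but the genes of that wider set kept a median of 3 regions, and the shares were not adjusted for the number of regions per gene. Nearest is a matter of distance and does not show which gene a region acts on.

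CRTC1, a coactivator of CREB, had 3 of 9 regions among the members, the largest share of the 12 genes named here, and none opened. Its members had solvent, 6 h and 24 h AUCs of 373, 536 and 311, of 203, 320 and 211, and of 278, 622 and 449. All were highest at 6 h. EPM2A, the glycogen phosphatase laforin, had 3 of 11 regions, 124764 to 129612 bases from its start and each highest at 6 h. SLC9A9, an endosomal sodium-proton exchanger, had 3 of 16. GSE1 had 3 of 46, each proximal to a start site, and the strongest of these went from 607 to 809 and 311. EFNA5, an ephrin ligand, had 3 of 47, PLXNA2, a semaphorin receptor, 3 of 44 and PTPRM, an adhesion phosphatase, 3 of 36, and 28, 20 and 20 regions opened at these genes. DHX35, OXR1, RAB4A, POU5F1B and MYC had 3 each as well, of 30, 31, 33, 38 and 67 regions. At MYC the members lay at least 133883 bases from its start, and PVT1 or LINC00824 was the nearest gene of any type.

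Genes of 13 lists on epithelial identity, EMT and signalling were then examined, to be read against the 1.87% of all regions that closed late. Of 255 regions nearest to adherens and tight junction genes 8 closed (3.14%, 1.60 to 6.07), where 3.66 would follow from their solvent AUCs at the rate of all regions. The closed regions included one in an intron of CDH1, the gene of E-cadherin, 8044 bases from its start, with AUCs of 340, 422 and 375, while 10 other regions of CDH1 were kept. F11R, the junctional adhesion molecule A, had 215, 282 and 370 and was thus highest at 24 h. CLDN1, CTNNB1, CTNND1, PARD6B and TJP3 had 1 member each, with 24 h AUCs from 273 to 377.

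Among 18 regulators of epithelial transcription and splicing 6 of 214 regions closed (2.80%, 1.29 to 5.98; 3.39 from AUC). GATA3, a luminal transcription factor, had 2: the one 991 bases from its start had 209, 348 and 395, and the one 71117 bases away had 326, 519 and 209. RBM47, an epithelial RNA-binding protein, also had 2, with 423, 451 and 410 and with 330, 523 and 605. At TP63, the factor of basal epithelium, a region 121788 bases from its start had 671, 738 and 244. A region 68830 bases from the start of GRHL2, which maintains epithelial enhancers, had 203, 367 and 274. Desmosome and keratin genes had 1 of 158 (DSP, desmoplakin).

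EMT transcription factors had 4 of 108 regions (3.70%, 1.45 to 9.14; 2.76 from AUC), near SNAI2, ZEB2 and, with 2, TCF4. The ZEB2 member, 8842 bases from its start, had 560, 657 and 410. Mesenchymal and matrix genes had 3 of 311 (0.965%, 0.329 to 2.80; 6.12 from AUC), near COL4A2, SPARC and THBS1. Counts were small, and the intervals of all 13 lists reached across 1.87%.

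TGFβ and BMP pathway genes had 9 of 442 (2.04%, 1.07 to 3.82; 7.13 from AUC). The member at SMURF2, a ubiquitin ligase that turns over TGFβ receptors, lay 103 bases from its start and had 553, 761 and 288, and the one at SMAD7, the inhibitory SMAD, covered a start site and had 236, 511 and 377. Both were highest at 6 h, as were 941 of all members (62.2%). Both genes had another 72 h peak within 3 kb of a start site. So did the genes of 408 of the 443 members (92.1%) within 3 kb of a protein-coding start site. Neither trait is thus particular to these 2 genes. The strongest at 24 h lay 208489 bases from TGFB2, one of the ligands, with 680, 831 and 634. BMP7, BMPR2, LTBP2, LTBP3, SMAD6 and TGFBR3 had 1 each. C/EBP and KLF genes had 6 of 262 (2.29%), cell cycle genes 6 of 177 (3.39%) and EGFR ligands and ERK feedback genes 8 of 403 (1.99%). Of 93 regions nearest to AP-1 genes none closed late, which allows up to 3.23%, and of 114 nearest to epithelial cytokine and NF-κB genes none did, which allows up to 2.63%. Glucocorticoid response genes had 1 of 171 and sterol and fatty acid synthesis genes 1 of 93.

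Late-closing regions also differed in sequence from kept regions of like solvent AUC. Windows of 201 bases around the solvent summit were searched on both strands for 15 motifs. Among the 932 distal members, 85 (9.12%, 7.44 to 11.1) held the AP-1 motif TGAGTCA or TGACTCA, against 36.0% of distal kept regions of like solvent AUC, a gap of -26.9 points (-28.6 to -24.9). The E-box CACCTG was held by 267 (28.6%, 25.8 to 31.6) against 18.4%, a gap of 10.3 points (7.46 to 13.3). The C/EBP motif, written TTGCGCAA, TTGTGCAA, TTACGCAA or TTATGCAA, was held by 76 (8.15%, 6.56 to 10.1) against 3.35%, a gap of 4.80 points (3.21 to 6.74). Where an overlap had to cover at least 50% of both peaks, these gaps were -7.23, 3.42 and 1.95 points. Motif matches describe the letters present and not binding of a factor.

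**Figure D4:**
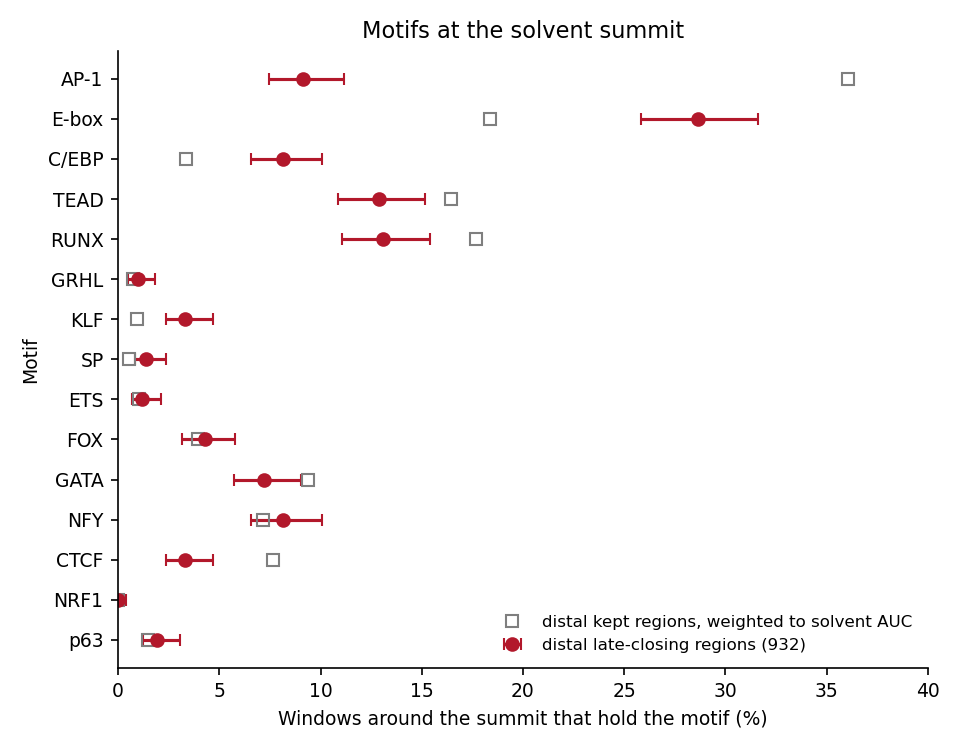
Share of 201-base windows at the solvent summit that held each of 15 motifs (x axis, percent), for the 932 distal late-closing regions (circles, with 95% Wilson intervals) and for distal kept regions weighted to their solvent AUC (open squares). AP-1 was the rarer in members (9.12% against 36.0%), and CACCTG (28.6% against 18.4%) and C/EBP (8.15% against 3.35%) were the more frequent.

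Of the other motifs, KLF (GGGCGTGGC or GGGTGTGGC) was held by 31 distal members (3.33%, 2.35 to 4.68) against 0.924%, and SP (GGGGCGGGG) by 13 (1.39%, 0.817 to 2.37) against 0.521%, or 0.888% once GC content was weighted too. CTCF, the insulator protein, had a match in 31 (3.33%, 2.35 to 4.68) against 7.65%. RUNX (TGTGGT) was at 13.1% against 17.7% and TEAD (GGAATG) at 12.9% against 16.4%. The AGATAA motif of GATA factors was at 7.19% against 9.37%, but at 7.77% in kept regions weighted to GC content as well, within the interval of the members. For GRHL (AACCGGTT or AACCTGTT), p63, ETS (CCGGAAG), FOX (TGTTTAC) and NFY (GCCAAT) the weighted kept share lay within the interval of the members, and NRF1 matched none of the 932, which allows up to 0.322%. In both weightings AP-1, CTCF, RUNX and TEAD motifs were the rarer in members, and E-box, C/EBP and KLF motifs the more frequent.

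Base composition moved with these shares: the median GC content of distal members was 49.3% (48.8 to 49.8) and that of weighted kept regions 46.3%. With kept regions weighted to solvent AUC and GC content together the gaps were -23.5 points for AP-1, 7.46 for the E-box and 5.42 for C/EBP. Repeat sequence was found in 75 distal members (8.05%, against 4.53%), and without such windows the gaps were -26.4, 10.2 and 4.85 points. When kept regions were weighted to the AUC at 24 h instead, the gaps were -16.8, 4.68 and 2.10 points. Among distal regions with an AUC of at least 400 in the first 3 lists the AP-1 gap was -34.9 points, that of the E-box 8.79 (0.775 to 18.5) and that of C/EBP 3.28 (-0.435 to 10.3).

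Within bins of solvent AUC the motifs sorted the regions in the same way. Of distal regions with an AUC from 200 to 300, 44 of 2589 with AP-1 closed late (1.70%, 1.27 to 2.27) and 419 of 5001 without (8.38%, 7.64 to 9.18). From 600 to 1000 these were 2 of 4214 (0.0475%) and 80 of 6422 (1.25%). Distal regions with AP-1 thus closed less often in both bins. With CACCTG, 8.79% closed from 200 to 300 (7.40 to 10.4) against 5.50% without, and 1.54% against 0.584% from 600 to 1000. With C/EBP, 12.6% closed from 200 to 300 (8.98 to 17.3) against 5.88% without, and 5.54% against 1.60% from 400 to 600, whereas from 600 to 1000 the shares were 4 of 447 (0.895%, 0.349 to 2.28) and 0.766%.

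**Figure D5:**
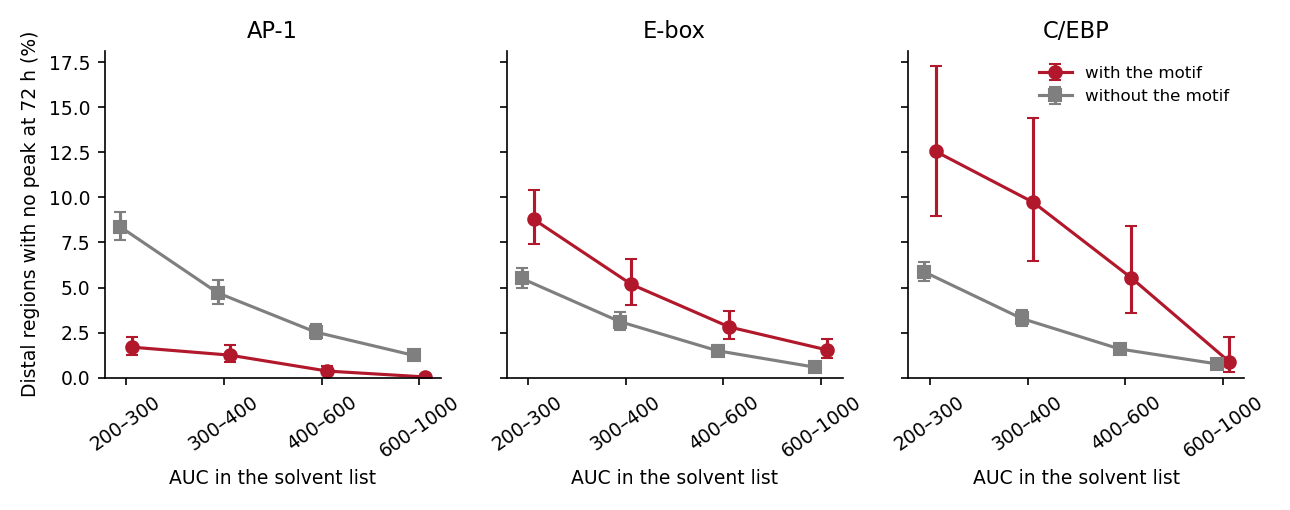
Share of distal regions open in the first 3 lists that had no peak at 72 h (y axis, percent), by solvent AUC, with (circles) and without (squares) the AP-1, E-box or C/EBP motif; lines are 95% Wilson intervals. From 200 to 300 closing was 1.70% with AP-1 against 8.38% without, 8.79% against 5.50% for the E-box and 12.6% against 5.88% for C/EBP.

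Most distal members held none of these 3 motifs (552, 59.2%). AP-1 and CACCTG shared a window in 33 of the 85 with AP-1, CACCTG and C/EBP in 11 and AP-1 and C/EBP in 5. These counts cover members only and have no reference from kept regions here, so they are not traits particular to the members. Courses before closing overlapped between members with and without these motifs: the median log2 ratio of the 24 h to the 6 h AUC was -0.33 (-0.48 to -0.22) with AP-1 and -0.33 (-0.37 to -0.29) without, -0.39 (-0.46 to -0.32) and -0.30 (-0.36 to -0.26) for CACCTG, and -0.38 (-0.51 to -0.30) and -0.32 (-0.37 to -0.28) for C/EBP. The 31 members with a CTCF motif had -0.07 (-0.22 to 0.13), against -0.34 (-0.38 to -0.30) without, and a solvent median of 222 against 304. The AUC of these CTCF-bearing members at 24 h, 310, was close to that of the others, 317.

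Among proximal members AP-1 and CTCF were held less often than in proximal kept regions, and the E-box and C/EBP more often. AP-1 was found in 44 of 581 (7.57%, 5.69 to 10.0) against 25.9%, CACCTG in 141 (24.3%, 21.0 to 27.9) against 20.7%, C/EBP in 26 (4.48%, 3.07 to 6.48) against 2.66% and CTCF in 22 (3.79%, 2.51 to 5.67) against 8.47%. With GC content weighted too, the proximal kept share for CACCTG was 21.9%, inside the interval of the members. The RUNX motif (14.6% against 15.2%) and the TEAD motif (12.4% against 14.2%) differed by less than the counting interval of the proximal members.

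Distal regions that had already closed by 24 h held the 3 motifs at shares whose intervals overlapped those of the late-closing regions, with AP-1 in 7.89% (5.97 to 10.4), CACCTG in 28.5% (24.96 to 32.3) and C/EBP in 10.98% (8.69 to 13.8) of 583 regions. Distal regions open only at 6 and 24 h, which had no solvent peak to begin with, held AP-1 in 20.3% (18.5 to 22.1), CACCTG in 19.4% (17.7 to 21.3) and C/EBP in 2.87% (2.21 to 3.72) of 1914. Their windows were centred on the 24 h summit, and their AUCs were not weighted to those of the members. Both sets lost their peak by 72 h, and the intervals of the transient set did not overlap those of the late-closing regions for any of the 3 motifs.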

How the data were processed

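Chromatin accessibility of wild-type MCF10A cells was profiled by ATAC-seq in 8 libraries. Per the submitters' processing notes and the study's methods, reads were trimmed by the authors with Trimmomatic 0.38, aligned to GRCh38 with Bowtie2 2.4.5 and freed of duplicates with Picard and of low mapping quality (limit 30) with SAMtools 1.4.1, and peaks were called on both replicates together with Genrich 0.5. The deposited lists give for each peak the AUC, a signal never below 200, and the −log10 p-value and −log10 q-value at the summit. Calling on pooled replicates leaves no replicate error, and the AUC is not scaled between lists, so that depth or noise of 1 library can move it. List names gave the conditions.

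Lists were merged with Python 3.11.15, numpy 2.4.6, pandas 2.3.3, scipy 1.17.1 and pysam 0.24.0, and annotated with GENCODE 44. All deposited coordinates lay within the chromosome lengths of the hg38 sequence used. Kept regions were weighted to the members by solvent AUC in bins of 0.25 log2 units. Wilson intervals of shares and order-statistic intervals of medians are at 95%, refer to the members alone and cover counting error. No p-value was computed. A window counted as repeat sequence when at least 20% of its 16-base words occurred over 100 times on chromosome 1. The number expected per gene list applies the closing rate of each AUC bin. The promoter and course comparisons were tested on sets drawn from the real kept regions, without and with planted gaps. The other counts were not tested in this way.

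Members and gene lists were chosen with earlier results of these data known. Genes were named by the largest 24 h AUC (12 members, and 6 proximal ones), by number of members (12 of the 16 genes with 3, in alphabetical order), by membership of the 13 lists and by distance to the AUC threshold; not every gene these rules name is printed, and some are not reported here. Motif counts within AUC bins, the GC and repeat checks, the promoters without a 72 h peak and the last 5 sequences were added after the data were seen.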

Additional observations from a re-analysis of the deposited data

How the results depend on the processing

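No paired analysis was possible because each condition has 1 list called on both replicates together, and for the same reason no replicate could be left out. The number of late-closing regions was 3239 with lists of equal length, 2995 when peaks had to overlap by at least 50% of both, and 141 among regions with an AUC of at least 400 in the first 3 lists. With lists of equal length the gap to kept regions was -0.46 for the log2 AUC course, -22.7 points for AP-1, 6.69 for the E-box and 1.85 for C/EBP. With the stricter overlap the gaps were 3.59 points for promoter share, -0.31 for the course, -7.23 for AP-1, 3.42 for the E-box and 1.95 for C/EBP. When peaks under an AUC of 400 were dropped from every list, the course gap was -0.65 and the E-box gap 4.65 points. Weighted to the AUC at 24 h, the gaps were 4.43 points for promoter share, -0.16 for the course, -16.8 for AP-1, 4.68 for the E-box and 2.10 for C/EBP. Without weighting, the promoter gap reversed to -2.17 points, the course gap was -0.48 and the AP-1 gap -29.8. Weighted to solvent AUC and width, the course gap was -0.74; with AUC per base it was -0.54 and with −log10 p -0.26. The promoter gap was 4.67 points without members near a 72 h peak, 0.45 with an AUC of at least 400 before closing, and 7.05 for start sites within 1 kb. The AP-1 gap was -34.9 points with an AUC of at least 400 before closing and -23.5 when GC content was weighted too. In proximal regions the gaps were -18.4, 3.57 and 1.81 points for AP-1, the E-box and C/EBP. The causes of these shifts were not tested. The AP-1, E-box, C/EBP and course gaps kept their direction under every alternative run.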
